A study of Mus musculus with 9 samples.

Results

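The splicing regulators of the ESRP group and the genes whose isoforms they are known to switch between epithelial and mesenchymal cells were followed across all libraries of the series. The group held 10 genes, chosen by symbol from 52459 in the files: the regulators Esrp1, Esrp2, Rbm47 and Rbfox2, and the isoform-switch genes Fgfr2, Cd44, Ctnnd1, Enah, Arhgef11 and Slk. The files list 127 transcripts of these genes out of 131100. RNA-Seq was performed on NMuMG cells, an immortalized mouse mammary gland epithelial line, with 3 libraries in each of 3 groups. Mock cells carried the empty pBICEP vector. EPR cells stably overexpressed the lncRNA BC030870, named EPR, which also encodes a small peptide. EPRSTOPE cells overexpressed a point mutant of it in which the second codon of the open reading frame is a stop, so that no peptide is made. All groups were G418-selected populations of transfectants, and the methods describe the libraries as biological triplicates without saying whether those of a group came from separate transfectant pools. The p-values measure the spread between these libraries.

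Epithelial splicing regulatory proteins bind pre-mRNA near alternative exons and decide whether an exon is kept or skipped. ESRP1 and ESRP2 are produced in epithelial cells and fall when cells turn mesenchymal. Their presence favors exon IIIb over exon IIIc of Fgfr2, the variable exons of Cd44, the shorter forms of p120-catenin and exon 11a of Enah, and the skipping of a cassette exon in Slk and of one in Arhgef11. RBM47 is an RNA-binding protein of epithelia that acts on some of the same exons, and RBFOX2 acts more often toward the mesenchymal pattern.

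Library totals ran from 5972457 to 11876435 estimated counts, so that 3 counts amounted to 0.253 to 0.502 CPM, estimated counts scaled to a common library total. RNA of BC030870 was at 0 to 0.16 CPM in the mock libraries, at 23.7 to 27.0 CPM in EPR and at 3.80 to 4.74 CPM in EPRSTOPE. The epithelial markers differed among themselves in mock cells. Krt8 was at 1989.5 to 2231.7 CPM and Krt18 at 1440.5 to 1638.1 CPM there, whereas Cdh1 and Epcam were near or at 0. Cdh1, which encodes E-cadherin, was at 0.31 to 1.16 CPM in the mock libraries, at 542 to 569 CPM in EPR and at 381 to 427 CPM in EPRSTOPE. The 10 epithelial markers summed to 3694 to 4158 CPM in mock, 9502 to 10610 CPM in EPR and 10688 to 11025 CPM in EPRSTOPE, most of it keratin, and 4 of the 10, Epcam among them, were at 0 in every mock library. The rest of these, Cldn3, Cldn4 and Cldn7, were also at 0 in every EPRSTOPE library and at most at 0.51 CPM in EPR. Of the 10 fibroblast or mesenchymal markers, whose sum was 3586 to 3762 CPM in mock, 2001 to 2225 CPM in EPR and 3697 to 4066 CPM in EPRSTOPE, Vim and Fn1 made up most. The 6 basal or myoepithelial markers summed to at most 12.2 CPM, blood markers to at most 3.83 CPM and endothelial markers to at most 16.4 CPM in any library. The part of this difference between the populations in the results below was not tested. In bulk RNA, fewer cells of a kind and less RNA per cell cannot be told apart.

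Exons that define the isoform classes are shown first, since the shares below count transcripts that hold or lack them. The sequences come from the Gencode transcripts on GRCm38, 5′ to 3′ in the sense of the gene, with the alternative exon in capitals and 15 bases of each neighboring exon in lower case. Fgfr2 exon IIIb (148 nucleotides, chr7:130199758-130199905, minus strand) is a coding exon that is exchanged for exon IIIc in the third immunoglobulin-like domain of the receptor. Enah exon 11a (63 nucleotides, chr1:181911597-181911659, minus strand), Slk exon 13 (93 nucleotides, chr19:47627648-47627740, plus strand) and the last variable exon of Cd44 (207 nucleotides, chr2:102831330-102831536, minus strand) are coding cassette exons.
Fgfr2 exon IIIb: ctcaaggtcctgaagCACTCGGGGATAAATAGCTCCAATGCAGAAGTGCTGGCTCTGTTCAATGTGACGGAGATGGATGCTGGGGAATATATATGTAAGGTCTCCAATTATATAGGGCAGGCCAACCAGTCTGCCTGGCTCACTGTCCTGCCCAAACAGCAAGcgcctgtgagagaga
Enah exon 11a: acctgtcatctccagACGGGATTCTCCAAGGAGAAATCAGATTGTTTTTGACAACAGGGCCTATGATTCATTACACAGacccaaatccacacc
Slk exon 13: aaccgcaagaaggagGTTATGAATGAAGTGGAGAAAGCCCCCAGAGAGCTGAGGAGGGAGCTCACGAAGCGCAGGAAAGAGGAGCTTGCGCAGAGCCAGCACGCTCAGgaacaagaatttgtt
Cd44 last variable exon: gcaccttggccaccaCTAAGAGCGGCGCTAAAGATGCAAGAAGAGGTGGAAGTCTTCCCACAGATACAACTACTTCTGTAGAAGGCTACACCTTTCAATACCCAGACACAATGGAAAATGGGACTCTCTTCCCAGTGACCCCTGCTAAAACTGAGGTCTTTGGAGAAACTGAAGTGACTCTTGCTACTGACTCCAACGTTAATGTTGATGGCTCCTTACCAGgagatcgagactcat

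The skipped forms join the flanking exons directly. In the junctions below, the first 15 bases in lower case end the upstream exon and the capitals begin the downstream exon.
Enah without exon 11a: acctgtcatctccagACCCAAATCCACACC
Slk without exon 13: aaccgcaagaaggagGAACAAGAATTTGTT
Cd44 standard form: gcaccttggccaccaGAGATCGAGACTCAT

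Expression of the regulators was examined first. Esrp1 (chromosome 4) was practically not detected: 2 counts in EPR replicate 207 and 0 in the other 8 libraries, below the 3 counts taken as the floor, so that no fold change is given and any level below 0.253 to 0.502 CPM would have been missed. It did not pass the filter of at least 1 CPM in at least 3 libraries. The other 9 genes passed it and were tested with edgeR's quasi-likelihood method across 15370 genes. A gene was called changed at a Benjamini-Hochberg adjusted p under 0.01 with a log2 fold change above 0.5 or below -0.5. Both comparisons with mock use the same 3 mock libraries.

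Esrp2 (chr8:106130319-106136974, minus strand) encodes the second epithelial splicing regulator. It was at 10.1, 12.2 and 11.6 CPM in the 3 mock libraries, at 27.4, 30.9 and 33.4 CPM in EPR and at 20.7, 23.1 and 18.1 CPM in EPRSTOPE. No library of any group overlapped with another group, and the order was EPR over EPRSTOPE over mock. It rose by a log2 fold change of 1.43 ± 0.13 (SE) in EPR against mock (edgeR adjusted p = 1.8e-06) and of 0.86 ± 0.13 in EPRSTOPE against mock (edgeR adjusted p = 0.00016). EPR exceeded EPRSTOPE by 0.57 ± 0.12 (edgeR adjusted p = 0.0039), a call that was lost in 4 of the 6 fits that left out 1 EPR or EPRSTOPE library (0.48 without EPRSTOPE replicate 211) and with length-scaled counts derived from TPM (0.36). The full-length coding transcript Esrp2-201 led in all 3 groups, at 2.27 ± 0.35 TPM in mock, 6.39 ± 0.64 TPM in EPR and 4.46 ± 1.38 TPM in EPRSTOPE (SD, n = 3). It passed the transcript test in EPR against mock, with a log2 fold change of 1.48 ± 0.18 (edgeR adjusted p = 0.0016), and stayed called in all 9 fits that left out 1 library.

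Rbm47 (chr5:66016549-66173118, minus strand) rose in EPR. Its levels were 41.9, 40.2 and 43.1 CPM in mock, 87.0, 81.2 and 85.5 CPM in EPR and 44.4, 50.8 and 56.6 CPM in EPRSTOPE. The EPR libraries were all above the rest, and the EPRSTOPE libraries lay just above mock. The log2 fold change was 1.02 ± 0.08 in EPR against mock (edgeR adjusted p = 9.3e-07) and 0.74 ± 0.08 in EPR against EPRSTOPE (edgeR adjusted p = 3.8e-05), whereas EPRSTOPE against mock gave 0.28 ± 0.09 (edgeR adjusted p = 0.0165) and was not called. With length-scaled counts the difference between EPR and EPRSTOPE was 0.50 and no longer called. Its leading entry by TPM in all groups was the 703-nucleotide Rbm47-207, which ranged from 2.55 to 12.3 TPM within the mock group alone.

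Rbfox2 (chr15:77078990-77307004, minus strand) was not called in any comparison. It was at 111, 104 and 111 CPM in mock, at 124, 127 and 116 CPM in EPR and at 121, 133 and 118 CPM in EPRSTOPE. The log2 fold changes against mock were 0.16 ± 0.06 in EPR (edgeR adjusted p = 0.054) and 0.19 ± 0.07 in EPRSTOPE (edgeR adjusted p = 0.030). The median over the 525 genes tested on chromosome 15 was 0.49 and 0.52 in the same comparisons, above the value of Rbfox2, and whether this bears on Rbfox2 was not tested. Rbfox2-203 led in all groups, with 59.7 ± 4.5% of the gene's TPM in mock, 54.3 ± 1.7% in EPR and 59.7 ± 6.5% in EPRSTOPE.

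**Figure D1:**
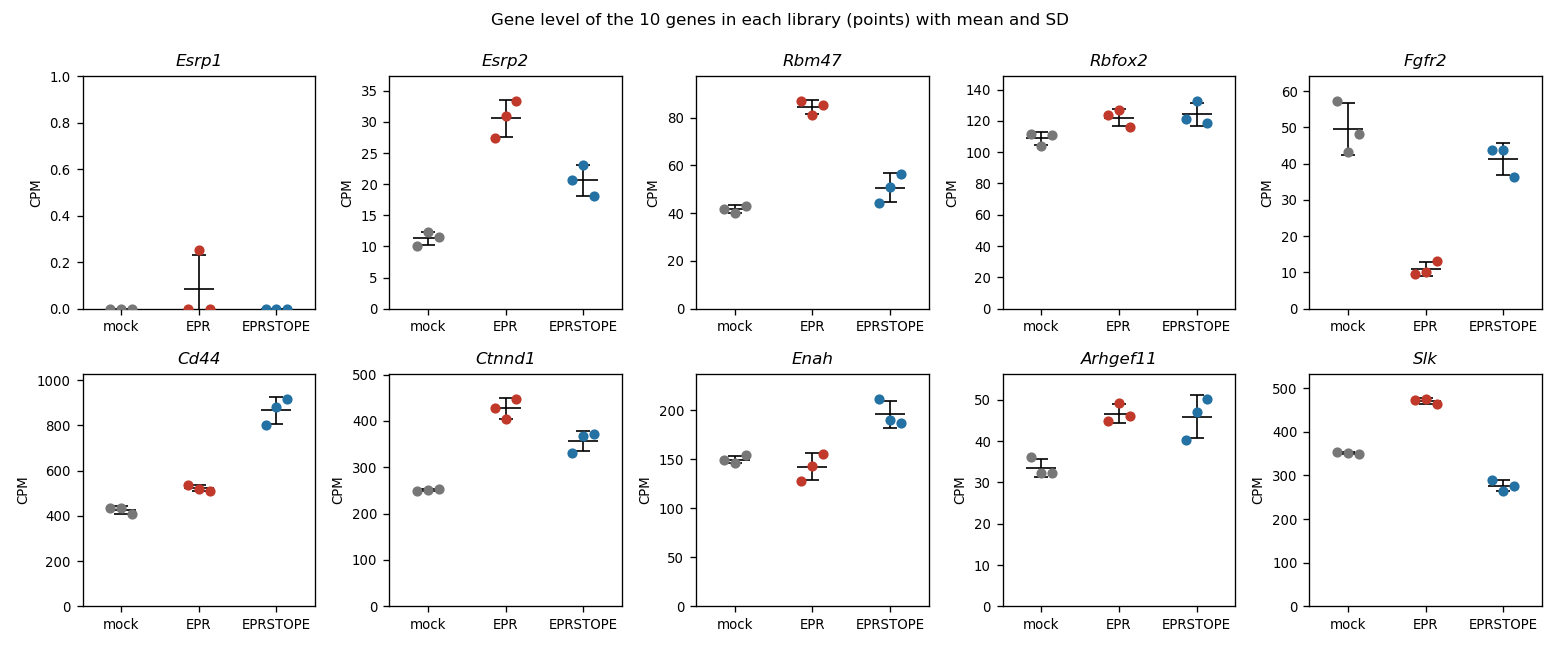
Level of each of the 10 genes in CPM (vertical axis, from 0 in each panel) in the 3 mock, 3 EPR and 3 EPRSTOPE libraries; points are libraries, the horizontal line and bars give mean and SD. Esrp2 and Rbm47 were highest in EPR, Fgfr2 was lowest in EPR, Cd44 was highest in EPRSTOPE and Esrp1 lay at or near 0 throughout.

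Across the 9 tested genes, 4 were called in EPR against mock (Esrp2, Rbm47 and Ctnnd1 higher, Fgfr2 lower), where 28.1% of all genes tested were called. In EPRSTOPE against mock 3 were called (Esrp2, Cd44 and Ctnnd1, all higher), against 28.0% of all genes in either direction and 15.6% called higher. The CPM of the groups did not overlap for 57.8% of all genes tested in EPR against mock, 56.4% in EPRSTOPE against mock and 43.0% in EPR against EPRSTOPE, so that separate groups were common. In EPR against EPRSTOPE 5 were called (Esrp2, Rbm47 and Slk higher, Fgfr2 and Cd44 lower), against 13.2% of all genes. Arhgef11, Enah and Rbfox2 were called in no comparison.

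**Figure D2:**
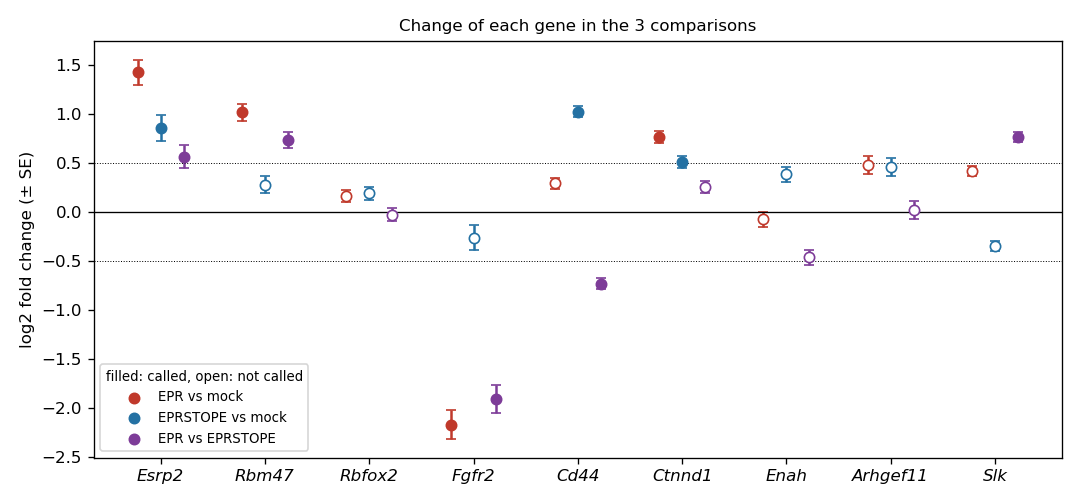
Log2 fold change (vertical axis, bars are SE) of the 9 tested genes for EPR and EPRSTOPE, each against mock, and for EPR against EPRSTOPE. Filled points were called and open points were not; the dotted lines mark 0.5 in either direction. Fgfr2 in EPR lies farthest from 0, at -2.17 against mock.

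Per length, and as means of the TPM in mock, Cd44 was the most abundant of the 10 genes (131 ± 14 TPM), followed by Ctnnd1 (92.4 ± 12.7), Enah (89.0 ± 15.5) and Slk (72.1 ± 3.0), whose ranges lay close together or overlapped. Fgfr2 (25.4 ± 10.96) and Rbm47 (21.1 ± 3.2) overlapped, as did Arhgef11 (6.21 ± 1.39) and Esrp2 (5.88 ± 1.42), with Rbfox2 at 12.4 ± 0.8 TPM between these pairs.

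Fgfr2 (minus strand of chromosome 7) encodes a receptor whose IIIb form binds fibroblast growth factors made by mesenchyme and whose IIIc form binds a different set. The gene was at 57.3, 43.3 and 48.2 CPM in mock, at 9.69, 10.1 and 13.1 CPM in EPR and at 43.9, 43.8 and 36.2 CPM in EPRSTOPE. All EPR libraries were far below the others, while mock and EPRSTOPE overlapped. It fell by 2.17 ± 0.14 on the log2 scale in EPR against mock (edgeR adjusted p = 1.5e-07), a 4.53-fold lower mean, and by 1.91 ± 0.14 against EPRSTOPE (edgeR adjusted p = 1.6e-06). EPRSTOPE against mock gave -0.26 ± 0.13 (edgeR adjusted p = 0.13).

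Of the 27 Fgfr2 transcripts, 10 hold exon IIIb and 5 hold exon IIIc. In mock cells the IIIc class carried more of the RNA: it had 190, 272 and 345 estimated counts in the 3 libraries against 16.6, 49.3 and 84.2 for IIIb. EPRSTOPE gave 173, 227 and 152 counts for IIIc against 19.9, 59.1 and 50.2 for IIIb. IIIc thus exceeded IIIb in all 6 of these libraries, and IIIb held 23.8 ± 8.9% of the TPM of both classes in mock and 27.7 ± 11.5% in EPRSTOPE. Mock and EPRSTOPE overlapped, with a difference of 3.89 percentage points (exact two-sided permutation p = 0.6, where 0.1 is the smallest that 3 against 3 libraries can give).

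In EPR the isoforms of Fgfr2 could not be resolved from the deposited estimated counts, whose totals are below the read numbers given in the methods. Its 3 libraries had 80.3 to 140 estimated counts for the whole gene. Replicate 206 had 84.6 counts for IIIc and less than 1 for IIIb, replicate 207 had 0 for IIIc and 53.9 for IIIb, and replicate 208 had 84.7 for IIIc and 25.4 for IIIb. The share of IIIb among both classes so ran over the whole scale within 1 group, at 44.9 ± 50.8%, and the differences from mock (exact permutation p = 0.7) and from EPRSTOPE (exact permutation p = 0.8) were within this spread. IIIc fell in level from 6.16 ± 0.52 TPM in mock to 1.10 ± 0.95 TPM in EPR, and no transcript of Fgfr2 passed the transcript test in any comparison. As a share of all Fgfr2 TPM, IIIb was at 9.62 ± 6.26% in mock, 20.7 ± 18.9% in EPR and 10.99 ± 4.25% in EPRSTOPE, again overlapping (exact permutation p = 0.5 for EPR against mock, 0.8 for EPRSTOPE against mock and 0.5 for EPR against EPRSTOPE). Much of the gene's TPM sat in short entries annotated as retained introns (50.0 ± 18.2% in mock), and the 790-nucleotide retained-intron entry Fgfr2-221 led in all 3 groups.

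**Figure D3:**
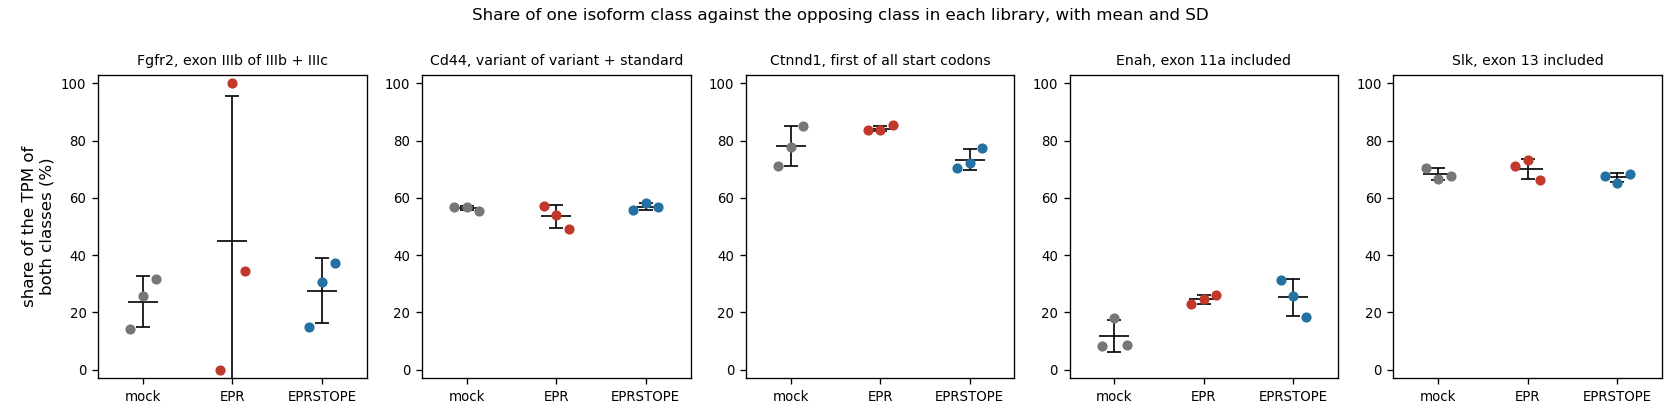
Share of one isoform class in the TPM of that class plus the opposing class (vertical axis, percent) for Fgfr2, Cd44, Ctnnd1, Enah and Slk in each library; points are libraries, lines and bars mean and SD. Enah exon 11a was included more in all EPR and EPRSTOPE libraries than in the mock libraries, Fgfr2 in EPR spread over the whole axis, and the Cd44 and Slk classes overlapped between groups by this measure.

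Cd44 (chr2:102811141-102901665, minus strand) encodes the hyaluronan receptor, whose extracellular stem is lengthened by variable exons. The gene was at 436, 435 and 407 CPM in mock, at 536, 520 and 512 CPM in EPR and at 803, 881 and 919 CPM in EPRSTOPE. The 3 groups did not overlap, and EPRSTOPE stood highest. The log2 fold change was 1.03 ± 0.06 in EPRSTOPE against mock (edgeR adjusted p = 3.3e-08) and -0.73 ± 0.06 in EPR against EPRSTOPE (edgeR adjusted p = 2.2e-06). EPR against mock gave 0.29 ± 0.06 (edgeR adjusted p = 0.0011), below the size required for a call.

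The standard form lacks all 10 variable exons and is represented by Cd44-203, and 7 coding transcripts hold at least 1 variable exon. The class as a whole did not separate the groups. Variant transcripts held 55.0, 55.2 and 54.2% of the gene's TPM in mock, 55.0, 51.7 and 47.5% in EPR and 54.1, 56.6 and 55.4% in EPRSTOPE, which overlapped in all 3 comparisons (exact permutation p = 0.3 for EPR against mock, 0.5 for EPRSTOPE against mock and 0.2 for EPR against EPRSTOPE). The direction depended on the unit: as a share of estimated counts the variant class was at 54.0 ± 1.2% in mock, 57.3 ± 0.8% in EPR and 59.2 ± 1.5% in EPRSTOPE, with mock below all others (exact permutation p = 0.1 for both).

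Within the variant class, Cd44-206 is an entry of 1305 nucleotides that holds only the last variable exon. It took 33.9 ± 1.0% of the gene's TPM in mock, 17.8 ± 6.5% in EPR and 18.8 ± 7.1% in EPRSTOPE. All mock libraries were above the others. Cd44-204 has 1412 nucleotides, whereas Cd44-207 and Cd44-201 have 5045 and 5614. TPM divides by length, so a count of a short entry weighs more in these shares. The 6 transcripts with 2 or more variable exons together held 21.6, 21.9 and 19.1% in mock, 30.4, 34.6 and 35.8% in EPR and 43.5, 34.0 and 32.2% in EPRSTOPE. Both overexpressing groups were above every mock library and overlapped with each other. The difference was 12.8 percentage points in EPR and 15.7 in EPRSTOPE (exact permutation p = 0.1 for both, the smallest possible); this grouping of transcripts was made after the values were seen. The usage test called no Cd44 transcript: against mock, the relative log2 fold change of Cd44-206 was -0.63 ± 0.33 in EPR and -0.58 ± 0.33 in EPRSTOPE, and that of Cd44-207 was 0.04 ± 0.29 and 0.14 ± 0.29 (edgeR diffSpliceDGE adjusted p = 1 for all). With limma's diffSplice, Cd44-206 stood at an adjusted p of 0.014 in EPR and 0.042 in EPRSTOPE, also short of the threshold.

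Exon by exon, the share of TPM that included the exon, over transcripts that include or skip it, was higher in all 3 EPR libraries than in all 3 mock libraries for 9 of the 10 variable exons, and likewise in EPRSTOPE for 9. Over the cassette exons of all genes tested, the groups did not overlap for 18.2% in EPR against mock and 12.0% in EPRSTOPE against mock. Of the 50 cassette exons of the genes followed here, 17 (34.0%) and 12 (24.0%) did not overlap in these comparisons. In each, 9 of them were Cd44 exons. The exons of a gene share transcripts and are not independent. The ninth (90 nucleotides, chr2:102832483-102832572) was included at 21.5 ± 1.6% in mock, 35.0 ± 3.0% in EPR and 37.6 ± 6.3% in EPRSTOPE, whereas the last, shown above, was at 56.4 ± 0.7%, 53.5 ± 3.9% and 56.9 ± 1.3%. The first 3 variable exons occur only in Cd44-201, the form with all 10, and stood at 5.11 ± 0.12% in mock, 9.19 ± 0.62% in EPR and 6.58 ± 0.98% in EPRSTOPE.

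**Figure D4:**
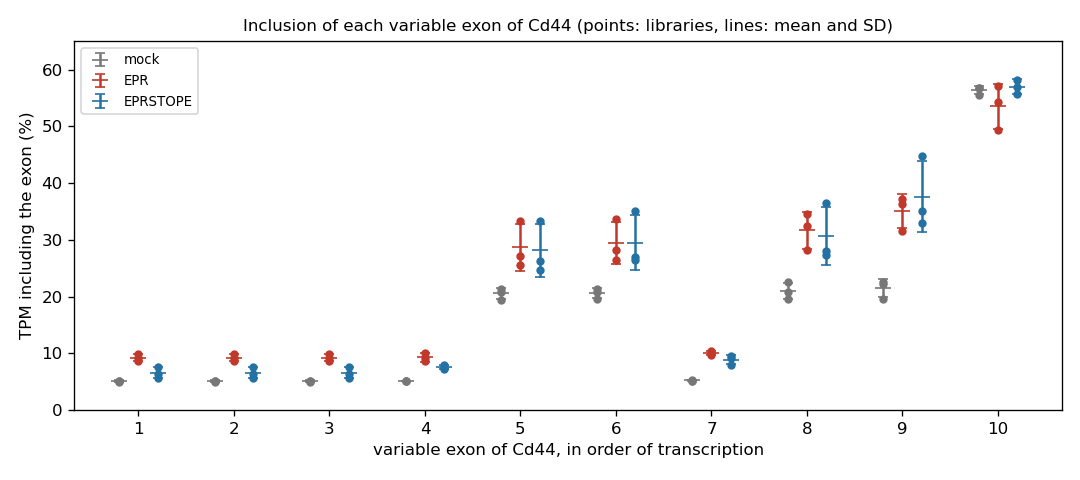
Share of Cd44 TPM that includes each of the 10 variable exons (vertical axis, percent; exons in order of transcription on the horizontal axis) in mock, EPR and EPRSTOPE libraries, with mean and SD. Exons 1 to 9 lie higher in EPR and EPRSTOPE than in mock, and exon 10 overlaps between the groups.

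By level, Cd44-201 was at 6.26, 7.43 and 5.87 TPM in mock, 13.7, 12.9 and 11.8 TPM in EPR and 13.6, 23.0 and 13.1 TPM in EPRSTOPE. It was called in both comparisons with mock, with a log2 fold change of 0.92 ± 0.16 in EPR (edgeR adjusted p = 0.0088) and 1.23 ± 0.16 in EPRSTOPE (edgeR adjusted p = 0.0020). The call in EPR held in none of the 6 fits that left out 1 of the compared libraries, with adjusted p up to 0.042, and that in EPRSTOPE in 5 of 6. The standard form Cd44-203 led in every group, at 55.6 ± 5.4 TPM in mock, 64.6 ± 4.1 TPM in EPR and 106 ± 17 TPM in EPRSTOPE. It rose by 0.88 ± 0.08 on the log2 scale in EPRSTOPE against mock (edgeR adjusted p = 0.00034), and Cd44-207, with 5 variable exons, by 1.25 ± 0.11 (edgeR adjusted p = 0.00024). In EPR against EPRSTOPE Cd44-203 was lower by -0.66 ± 0.08 and Cd44-207 by -0.85 ± 0.11 (edgeR adjusted p = 0.0055 and 0.0064). Leaving out 1 compared library kept the calls against mock of both in 6 of 6 fits, and those against EPRSTOPE in 2 of 6 for Cd44-203 and 1 of 6 for Cd44-207.

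**Figure D5:**
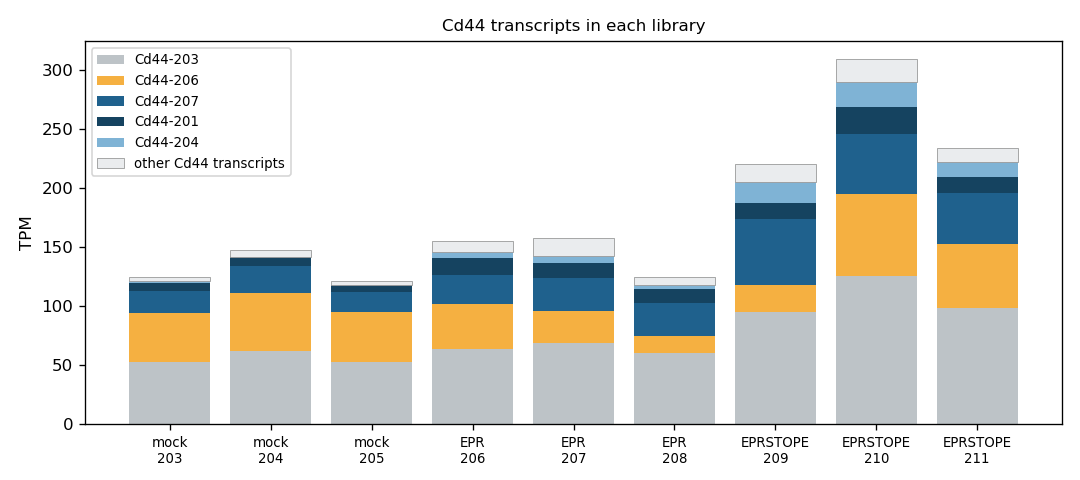
TPM of the Cd44 transcripts stacked for each library (vertical axis, TPM). Cd44-203 is the standard form, Cd44-206 holds only the last variable exon, and Cd44-207, Cd44-201 and Cd44-204 hold 5, 10 and 2 variable exons. The total was highest in the 3 EPRSTOPE libraries, and Cd44-206 took the largest part of the variant RNA in mock.

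Ctnnd1 (chr2:84600071-84650765, minus strand) encodes p120-catenin, which binds the juxtamembrane tail of cadherins and keeps them at the cell surface. It was at 249, 250 and 253 CPM in mock, at 429, 404 and 448 CPM in EPR and at 331, 367 and 373 CPM in EPRSTOPE. The 3 groups did not overlap. The log2 fold change was 0.77 ± 0.06 in EPR against mock (edgeR adjusted p = 6.7e-07) and 0.51 ± 0.06 in EPRSTOPE against mock (edgeR adjusted p = 2.2e-05), the latter just past the size required and lost in 4 leave-one-out fits and under 3 other settings. With length-scaled counts, EPR against mock gave 0.48 and was not called either.

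The coding transcripts of Ctnnd1 start at different codons. The first start codon here is the one at position 84624464, used by 10 transcripts and the most upstream of the 3 commonest. A single coding transcript, Ctnnd1-224, starts farther upstream, was at most at 0.31 TPM in any library and entered neither class. Transcripts with the first start codon held 71.3, 77.7 and 85.1% of the TPM of this and all later starts in mock, 83.6, 83.7 and 85.3% in EPR and 70.4, 72.3 and 77.4% in EPRSTOPE. EPR lay above EPRSTOPE without overlap, by 10.8 percentage points (exact permutation p = 0.1), and mock overlapped with both. Of the gene's whole TPM, non-coding entries included, the same class took 18.4, 33.8 and 30.6% in mock, 39.7, 50.1 and 49.9% in EPR and 55.1, 40.7 and 22.03% in EPRSTOPE. By this measure EPR lay above mock without overlap (exact permutation p = 0.1) and EPRSTOPE overlapped with both. In level it was at 24.8 ± 4.5, 51.7 ± 1.5 and 38.6 ± 6.4 TPM. The next most abundant start, at position 84620951, gave 6.06 ± 1.47 TPM in mock, 8.20 ± 1.20 TPM in EPR and 13.9 ± 4.3 TPM in EPRSTOPE.

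Ctnnd1-202 was the leading coding transcript and rose in EPR against mock by 0.93 ± 0.13 on the log2 scale (edgeR adjusted p = 0.0034), from 13.9, 13.7 and 17.2 TPM to 27.1, 33.3 and 29.0 TPM; the call held in 2 of the 6 fits without 1 compared library. Ctnnd1-217 was the only transcript of the 10 genes whose usage, its change relative to the rest of the gene, was called. It was at 0.10, 23.3 and 30.9 estimated counts in mock, 1313, 796 and 1431 in EPR and 322, 376 and 12.7 in EPRSTOPE. EPR was above all other libraries, and EPRSTOPE overlapped with mock through replicate 211. Its relative log2 fold change was 3.64 ± 0.72 in EPR against mock (edgeR diffSpliceDGE adjusted p = 0.0024), and the limma test on the log ratio of a transcript to the rest of its gene gave an adjusted p of 0.31, so that the call depended on the test. It was also lost in all 6 fits that left out 1 mock or EPR library, at a relative log2 fold change of at least 3.27 and adjusted p up to 0.066. Ctnnd1-217 differs from Ctnnd1-202 by a longer first exon and by holding an 18-nucleotide exon and a 63-nucleotide exon. Over all transcripts, the 63-nucleotide exon (chr2:84605184-84605246) was included at 52.5 ± 3.8% in mock, 61.4 ± 3.8% in EPR and 55.3 ± 1.9% in EPRSTOPE. EPR lay above both others, but EPR replicate 207, at 57.498%, hardly exceeded EPRSTOPE replicate 210, at 57.491%. The 18-nucleotide exon (chr2:84612532-84612549) was at 32.4 ± 9.8%, 34.7 ± 4.0% and 24.3 ± 5.1%, with EPR above EPRSTOPE.

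Enah (chr1:181896384-182019990, minus strand) encodes Mena, an actin regulator of the Ena/VASP family, and the form with exon 11a is the epithelial one. The gene was at 150, 146 and 154 CPM in mock, 128, 144 and 155 CPM in EPR and 212, 190 and 187 CPM in EPRSTOPE. EPRSTOPE was above the other libraries, but no comparison was called: the log2 fold change was 0.39 ± 0.08 in EPRSTOPE against mock (edgeR adjusted p = 0.0013), -0.46 ± 0.08 in EPR against EPRSTOPE (edgeR adjusted p = 0.00076) and -0.07 ± 0.08 in EPR against mock (edgeR adjusted p = 0.47). In TPM the EPR libraries, at 54.1, 60.0 and 50.5, lay below those of mock, at 106, 76.7 and 83.8. Without EPR replicate 208, EPR against EPRSTOPE reached -0.52 and was called.

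Exon 11a is held by 1 transcript, Enah-202, and is skipped by 8. Enah-202 was at 3.61, 6.84 and 4.04 TPM in mock, 8.53, 10.0 and 7.57 TPM in EPR and 14.3, 11.7 and 7.29 TPM in EPRSTOPE. All EPR and EPRSTOPE libraries were above all mock libraries. As a share of the gene's TPM it stood at 3.39, 8.93 and 4.82% in mock, 15.8, 16.7 and 15.003% in EPR and 19.97, 14.3 and 6.86% in EPRSTOPE, so that EPR lay above mock without overlap (exact permutation p = 0.1) and EPRSTOPE overlapped with mock through replicate 211 (exact permutation p = 0.2). Inclusion, as the share among the transcripts that hold or skip the exon, was 8.12, 18.1 and 8.78% in mock, 23.1, 24.6 and 26.1% in EPR and 31.4, 25.8 and 18.5% in EPRSTOPE. By this measure, chosen after the values were seen, both overexpressing groups were above mock without overlap, by 12.9 and 13.6 percentage points (exact permutation p = 0.1 for both), although EPRSTOPE replicate 211, at 18.5%, hardly exceeded the highest mock library. The usage test did not call Enah-202: its relative log2 fold change was 0.59 ± 0.42 in EPR and 0.49 ± 0.42 in EPRSTOPE against mock (edgeR diffSpliceDGE adjusted p = 1 for both), and the log-ratio test gave 1.10 ± 0.32 and 0.87 ± 0.32 (limma adjusted p = 0.37 and 0.42).

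Slk (chr19:47579678-47645246, plus strand) encodes a Ste20-like kinase. It moved in opposite directions in the 2 overexpressing groups: 353, 351 and 350 CPM in mock, 471, 476 and 463 CPM in EPR and 289, 265 and 276 CPM in EPRSTOPE, with no overlap. Against mock the log2 fold change was 0.42 ± 0.05 in EPR (edgeR adjusted p = 2.1e-05) and -0.35 ± 0.05 in EPRSTOPE (edgeR adjusted p = 0.00011), neither past the size required, and EPR exceeded EPRSTOPE by 0.77 ± 0.05 (edgeR adjusted p = 4.4e-07). The median over the 477 genes tested on chromosome 19 was -0.02 in EPR against mock, -0.55 in EPRSTOPE against mock and 0.55 in EPR against EPRSTOPE, so that the gene moved with its chromosome in the last 2, and the part of this shift in the value of Slk was not tested.

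Slk-202, which holds exon 13, took 46.0, 51.0 and 47.6% of the gene's TPM in mock, 54.6, 59.6 and 56.5% in EPR and 56.4, 55.5 and 46.4% in EPRSTOPE. EPR lay above mock without overlap, by 8.70 percentage points (exact permutation p = 0.1), and EPRSTOPE overlapped with both. The denominator of that share also holds Slk-201 and the retained-intron entries. Among Slk-202 and Slk-201 alone, a measure chosen after the values were seen, the share was 70.6, 66.7 and 67.8% in mock, 71.0, 73.2 and 66.4% in EPR and 67.7, 65.3 and 68.5% in EPRSTOPE. By this measure the groups overlapped in all 3 comparisons, with differences of 1.86 percentage points in EPR against mock, -1.21 in EPRSTOPE against mock and 3.06 in EPR against EPRSTOPE (exact permutation p = 0.5, 0.5 and 0.3). The 2 transcripts also differ at their 3′ ends, so that this share is not of the exon alone. Both were called in EPR against EPRSTOPE, Slk-201 at 0.68 ± 0.09 and Slk-202 at 0.89 ± 0.08 on the log2 scale (edgeR adjusted p = 0.0080 and 0.0015), and Slk-202 also in EPR against mock at 0.56 ± 0.08 (edgeR adjusted p = 0.0039). Of the 6 fits without 1 compared library, those against EPRSTOPE kept the call in 5 for Slk-202 and 0 for Slk-201, and that of Slk-202 against mock held in 1.

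Arhgef11 (chr3:87617559-87738034, plus strand) encodes a guanine nucleotide exchange factor. It was at 36.0, 32.2 and 32.2 CPM in mock, 44.9, 49.1 and 46.0 CPM in EPR and 40.2, 47.1 and 50.3 CPM in EPRSTOPE. Mock was below all others, and EPR and EPRSTOPE overlapped. The log2 fold changes against mock were 0.48 ± 0.09 in EPR (edgeR adjusted p = 0.0010) and 0.46 ± 0.09 in EPRSTOPE (edgeR adjusted p = 0.0015), below the size required, which 3 and 2 of the leave-one-out fits passed. The late cassette exon of Arhgef11 known to respond to ESRP proteins was not found among the transcripts of the annotation used, so its inclusion was not analysed here. Arhgef11-202 led in EPR (2.57 ± 0.21 TPM) and EPRSTOPE (2.66 ± 0.23 TPM), and the 615-nucleotide Arhgef11-206 in mock (1.96 ± 1.73 TPM).

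Over the transcripts of all 10 genes, 70 passed the filter and were tested. In EPR against mock 4 were called, all higher, against 4.07% of all transcripts tested and 2.87% called higher. In EPRSTOPE against mock 3 were called, all higher, against 4.64% and 3.11% called higher, and in EPR against EPRSTOPE 4, of which 2 were higher, against 0.854%. Leaving out 1 library in turn, the number of the 10 genes' transcripts called ran from 1 to 5, from 3 to 4 and from 0 to 2 in these comparisons, with 0 in the last without EPR replicate 206. Usage was called for 1 of the 70 in EPR against mock, against 0.227% of all transcripts tested for usage, and for none in EPRSTOPE against mock and EPR against EPRSTOPE, against 0.255% and 0.0970%. By edgeR diffSpliceDGE 11, 7 and 6 of the 70 had an unadjusted p under 0.05 in the 3 comparisons. The share of all transcripts under this p was not computed, so these counts cannot be set against it. The limma diffSplice and log-ratio tests called 0 of the 70 in any comparison. The share of the gene's TPM did not overlap between groups for 25 of the 70 in EPR against mock, for 9 in EPRSTOPE against mock and for 8 in EPR against EPRSTOPE, that is 35.7, 12.9 and 11.4%, beside 24.2, 15.3 and 10.6% of all transcripts tested for usage. The coefficient of variation between libraries fitted by edgeR was 0.709 for transcript estimates, which includes the uncertainty of assigning reads to isoforms, and 0.132 for genes.

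Of the 50 cassette exons found in 7 of the genes, 3 differed by at least 20 percentage points between group means, and all 3 rest on thin data. An exon of 203 nucleotides of Fgfr2 (chr7:130196172-130196374) was included at 70.0 ± 2.6% in mock, 96.4 ± 6.2% in EPR and 85.7 ± 12.5% in EPRSTOPE, with mock below all others, from as little as 0.83 TPM in a library. Its 197-nucleotide version was at 81.7 ± 6.2%, 66.7 ± 57.7% and 87.0 ± 15.8%. An exon of 57 nucleotides of Rbm47 was at 82.5% in mock replicate 203 and at 0 in the other 2 mock libraries and all EPRSTOPE libraries, and so rested on 1 library; EPR replicate 207 was at 18.9%.

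Other splicing regulators, a list of 40 genes, were called no more often than genes at large. In EPR against mock 3 of 35 tested were higher and 4 lower (8.57 and 11.4%, beside 15.2 and 12.9% of all genes), in EPRSTOPE against mock 2 and 4 (5.71 and 11.4%, beside 15.6 and 12.4%), and in EPR against EPRSTOPE 1 and 2 (2.86 and 5.71%, beside 6.86 and 6.35%). The list's median log2 fold change was -0.25, -0.20 and -0.06 beside -0.01, -0.04 and 0.01 over all genes. Mbnl3, a muscleblind protein, fell from 19.3 CPM in mock to 2.64 CPM in EPR and 0.65 CPM in EPRSTOPE, by 2.90 and 4.83 on the log2 scale (edgeR adjusted p = 3.9e-07 and 2.9e-08). Mbnl2 rose by 0.91 and 0.87 on the log2 scale (edgeR adjusted p = 1.2e-07 and 1.6e-07), and Celf2 fell by 1.91 and 1.82 (edgeR adjusted p = 5.7e-07 and 9.1e-07). Khsrp, the RNA-binding protein that the study started from, gave -0.27 and -0.24 (edgeR adjusted p = 0.0036 and 0.0080) and was not called.

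Of 24 other genes whose transcripts are spliced differently in epithelial and mesenchymal cells, 8 were higher and 1 lower in EPR against mock (33.3 and 4.17%, beside 15.2 and 12.9% of all genes). In EPRSTOPE against mock 5 and 1 were called (20.8 and 4.17%, beside 15.6 and 12.4%), and in EPR against EPRSTOPE 2 and 0 (8.33 and 0%, beside 6.86 and 6.35%), with median log2 fold changes of 0.16, 0.11 and -0.0007. Itga6, the integrin α6 subunit, rose by 1.18 and 1.30 on the log2 scale against mock (edgeR adjusted p = 7.9e-09 and 3.2e-09), and Fgfr3, a relative of Fgfr2, fell by 2.72 and 2.41 (edgeR adjusted p = 3.6e-08 and 8.7e-08). Of their 170 transcripts tested for usage, 1 was called in EPR against mock (Fat1-201), 1 in EPRSTOPE against mock (Rps24-202) and 2 in EPR against EPRSTOPE (Rps24-202 and Ralgps2-201), beside 0.227, 0.255 and 0.0970% of all transcripts tested for usage.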

How the data were processed

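Total RNA of 9 NMuMG libraries (TruSeq Stranded Total RNA) was sequenced by the authors. Groups were taken from the genotype in the titles, and the library numbers served as replicate names. The authors deposited for each Gencode vM15 transcript its estimated count, not normalized, and its TPM, both from Kallisto 0.43.1; TPM divides by effective length and sums to the same total in every library. Kallisto shares reads common to several isoforms by likelihood, so that isoform shares are estimates. Members and gene lists were chosen with earlier results of these data known.

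Estimated counts were summed per gene symbol and rounded. Features reaching 1 CPM in 3 or more libraries entered edgeR 4.0.16 (TMM scaling, quasi-likelihood F test, 1 factor with 3 levels), and usage with its diffSpliceDGE; DESeq2 and limma-voom were alternatives. CPM in the text are TMM-scaled. Exon classes used the Gencode M21 annotation (GRCm38), in which 127 of 127 member transcripts were found and 124 had the same version and length; the rest entered no exon class. Class shares were compared by exact two-sided permutation. Scripts were tested on simulated data. All pairs of replicate libraries differed by more than counting noise (chi-square per degree of freedom 4.63 to 9.59). Totals ran from 5972457 to 11876435 counts, and the floor is 3 counts. Named were all member genes, their leading transcripts, transcripts called for usage, and cassette exons whose group means differed by at least 20 percentage points. For Esrp1, with counts in 1 library, no genes of like pattern were sought. The sequence of 1 exon is not reported here.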

Additional observations from a re-analysis of the deposited data

Results flagged for a closer look

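For 5 of the genes the change against mock differed between EPR and EPRSTOPE, by the direct comparison of these groups, in which the shared mock libraries cancel. The difference on the log2 scale was -1.91 for Fgfr2, -0.73 for Cd44, 0.77 for Slk, 0.74 for Rbm47 and 0.57 for Esrp2, against 13.2% of all genes called in that comparison. Only Slk had changes against mock of opposite sign. EPR RNA itself differed between these groups (24.9 ± 1.9 CPM in EPR and 4.24 ± 0.48 CPM in EPRSTOPE). In these libraries the peptide, the amount of the lncRNA and other differences between the transfectant populations cannot be told apart. For Slk, the median over the 477 genes tested on its chromosome 19 was 0.55 in the same comparison. The part of that shift in the value of Slk was not tested. With 3 libraries per group no library was tested for standing apart.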

How the results depend on the processing

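No paired analysis was possible because the library numbers are not shared between groups. The depth of the deposited estimated counts limits the isoforms of Fgfr2 in EPR and Esrp1 in all groups, and transcript estimates vary more than gene counts.

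With length-scaled counts derived from TPM, 904 genes and 3 of the members were called in EPR against EPRSTOPE. Transcripts called in that comparison numbered 640 when at least 10 counts were required in every library. For usage in EPR against mock, limma diffSplice called 186 transcripts, the log-ratio test 21 and the count filter 22, with 0 members each. In EPRSTOPE against mock these tests called 172, 22 and 27, and in EPR against EPRSTOPE the log-ratio test called 11 and the filter 3. Leave-one-out counts of transcripts called ran from 1060 to 1757, 1284 to 1921 and 141 to 276 for EPR and EPRSTOPE against mock and for EPR against EPRSTOPE, those of usage from 23 to 153, 16 to 241 and 13 to 58, and members called for usage from 0 to 1 in each comparison with mock. The log-ratio test, the grouping of Cd44 transcripts by number of variable exons, the share among opposing classes and the partial exon IIIb were chosen after seeing the data.

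The difference in class share changed for Cd44 variants to 3.25 points in EPR and 5.17 in EPRSTOPE against mock with estimated counts, and 12.8 and 15.7 with transcripts of 2 or more variable exons. For Ctnnd1 in EPR against mock it was 9.70 with estimated counts and 6.17 among opposing classes. For Slk it was 3.20 with estimated counts and 1.86 among opposing classes in the same comparison and -1.21 in EPRSTOPE against mock among opposing classes. For Fgfr2 IIIb in EPRSTOPE against mock it was 7.66 with the partial exon. The Cd44 variant difference in EPR and that of Slk in EPRSTOPE thereby turned sign. From gene TPM to opposing classes, sign also turned for Ctnnd1 in EPRSTOPE against mock (11.7 to -4.67 points). The same held for Fgfr2 IIIc in EPRSTOPE against mock (3.35 to -3.89) and Enah exon 11a in EPR against EPRSTOPE (2.11 to -0.67). Among gene changes, sign turned for Rbfox2 in EPR against EPRSTOPE (0.0054 with at least 10 counts, -0.061 to 0.025 leave-one-out), Arhgef11 in the same comparison (-0.053 to 0.089) and Enah in EPR against mock (-0.13 to 0.0019). The causes were not tested. Among the values of member genes under alternatives with all libraries, 154 kept direction and call, 6 lost the call, 1 gained it and 1 changed sign.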

Other observations

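By mean, entries not annotated as protein-coding took a smaller part of several of these genes in EPR than in mock and a larger part of Cd44. Of the TPM of Ctnnd1, entries not annotated as protein-coding held 64.8 ± 9.1% in mock, 44.7 ± 6.8% in EPR and 45.6 ± 25.0% in EPRSTOPE. For Slk, retained introns held 29.4 ± 5.7%, 18.9 ± 4.1% and 21.3 ± 9.5%, and for Enah 65.8 ± 11.8%, 50.9 ± 2.7% and 48.7 ± 17.0%. For Esrp2, retained introns held 60.2 ± 3.7%, 41.3 ± 12.8% and 46.2 ± 14.1%, and its other non-coding entry 0% in mock and 6.87 ± 6.23% in EPR. By these shares, retained introns for Slk, Enah and Esrp2, the 3 mock and 3 EPR libraries did not overlap for Ctnnd1, Slk and Esrp2 and overlapped for Enah. For Ctnnd1 the EPRSTOPE libraries ranged from 21.7 to 71.5%. In the other direction, retained introns held 2.77 ± 0.28% of Cd44 in mock and 3.99 ± 0.47% in EPR, without overlap. For Rbm47 retained introns alone were at 4.13 ± 1.09% and 6.82 ± 0.83%, without overlap, and for Arhgef11 at 3.10 ± 1.98% and 3.84 ± 2.54%, with overlap. The remaining non-coding entries of these 2 genes fell in mean, with overlap. They went from 9.05 ± 15.7% in mock to 3.04 ± 4.67% in EPR for Rbm47, and from 24.2 ± 6.1% to 15.15 ± 7.75% for Arhgef11. The protein-coding share thus rose in mean, from 86.8 to 90.1% for Rbm47 and from 72.75 to 81.0% for Arhgef11. No test was run on these shares. How often such shares do not overlap over all genes was not computed, so the lack of overlap cannot be set against it. For shares of single transcripts, mock and EPR did not overlap for 24.2% of all transcripts tested for usage.

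The 5 genes whose level followed Fgfr2 most closely over the 9 libraries, by Pearson's r of log2 CPM, were Tmcc2 (0.990), Nrp1 (0.989), Mb21d1 (0.989), Tgfb2 (0.986) and Anxa6 (0.986). The libraries fall into 3 groups, so that r mostly reflects group means. Anxa6 was at 307 ± 5 CPM in mock, 1.21 ± 0.31 CPM in EPR and 232 ± 8 CPM in EPRSTOPE, and Nrp1 at 357 ± 6, 138 ± 6 and 300 ± 3 CPM. The paper names Fgfr2 and Anxa6 among the transcripts it ascribes to the peptide. It drew on independent EPRSTOPE transfectant pools with qRT-PCR, and on a further mutant, EPRSTOPM, whose start codon is a stop. Those experiments are not part of these libraries.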
